A study of Homo sapiens with 66 samples.

Results

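The proteasome degrades ubiquitin-tagged proteins. Its core particle is a barrel of α rings and β rings, of which the β rings carry the proteolytic sites, and it is capped by a regulatory particle whose base unfolds substrates and whose lid removes ubiquitin. Dedicated chaperones assemble both particles. Interferons induce alternative catalytic subunits (PSMB8, PSMB9 and PSMB10) and the activator PA28 (PSME1 and PSME2), which favour the production of peptides for MHC class I presentation. In myeloid cells these inducible parts are already present at rest.

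Proteasome genes were taken as the protein-coding genes whose GENCODE name begins with PSM, a letter from A to G and a number, without PSMB8 and PSMB9. The annotation names 48 such genes, and 47 of them were found by Ensembl identifier among the 57820 genes of the count tables. PSMB3 had no matching row and was not analysed here. PSMC3IP, a recombination factor, and PSME3IP1, a protein that binds the activator PSME3, met the name rule but are not proteasome subunits. The tested genes comprised 7 α-ring genes, 3 structural and 3 constitutive catalytic β-ring genes, the inducible catalytic subunit PSMB10, 6 ATPases and 3 other subunits of the base, 8 lid subunits, 3 base chaperones, 4 core chaperones, 4 activators with the inhibitor PSMF1, and the 2 genes matched by name only. The testis-type α subunit PSMA8 and the thymus-type β subunit PSMB11 were not tested, because they had at most 3 and 11 reads in any library of the first study.

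RNA was sequenced from THP-1 cells, a human monocytic leukemia line, that carried a Cas9 transgene and had received guide RNAs (gRNAs) by nucleofection. In the first study, all libraries came from 1 STING-deficient clone. Whole-cell total RNA was collected on days 3, 4 and 5 from cells given a nontarget gRNA (CTRL), a GFP gRNA, an ADAR gRNA, an hnRNPC gRNA, or the ADAR and hnRNPC gRNAs together (ADAR+hnRNPC), and on day 4 from CTRL cells that received IFN-α from day 3, with 3 libraries in each of the 16 groups. In the second study, a WT clone received other gRNAs against the same targets and was fractionated on day 4, giving total and cytosolic (digitonin-soluble) RNA of CTRL, hnRNPC, ADAR and ADAR+hnRNPC cells and RNA of the nuclear, mitochondria-enriched pellet of hnRNPC cells, with 2 libraries in each of the 9 groups. ADAR converts adenosine to inosine in double-stranded RNA, and hnRNPC is a nuclear RNA-binding protein that limits the splicing of Alu-derived exons. Targeting leaves a mixed pool of edited cells, so a smaller loss in every cell and a full loss in some of them cannot be told apart in bulk RNA.

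Gene counts per library ranged from 95107690 to 152829008 in the first study and from 49666958 to 73873756 in the second. In the first study HNRNPC was at 310 to 447 counts scaled to library size (CPM) with the hnRNPC gRNA and at 725 to 847 CPM without it. ADAR mRNA was not lower with the ADAR gRNA alone (349 to 395 CPM, against 364 to 421 CPM in CTRL), so that targeting was not visible at this level and was read from editing instead. Of 8 monocytic markers 7 were present and CD68 was at or below 0.284 CPM, while markers of other blood cells summed to at most 6.71 CPM in any library of the first study. That sum was 5.73 to 6.71 CPM in hnRNPC day 5 libraries and 2.85 to 3.33 CPM in CTRL day 5 libraries, and its part in the results was not tested. In the second study 3 total RNA libraries (CTRL replicate 2 and both ADAR+hnRNPC replicates) stood apart, with 2189 to 3382 CPM of the nuclear RNAs MALAT1 and NEAT1 against 880 to 1713 CPM in the other 5 total RNA libraries. The counts for cytosolic against total RNA and the PSME4 value are therefore also given without them. Counts for the gRNA comparisons in total RNA are also given without CTRL replicate 2. The libraries are the replicates, and p-values measure the spread between them.

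Per kilobase of exon, the levels of the proteasome genes in CTRL cells on day 4 spanned a wide range even among subunits that occur in equal numbers in the particle. The β-ring genes PSMB4 (314 CPM per kb) and PSMB1 (287 CPM per kb) and the α-ring gene PSMA7 (241 CPM per kb) were highest. Both PA28 genes stood near the top, PSME2 at 197 and PSME1 at 146 CPM per kb, and the inducible PSMB10 (90.6 CPM per kb) was above the constitutive catalytic genes PSMB5 (76.3 CPM per kb), PSMB7 (73.3 CPM per kb) and PSMB6 (55.8 CPM per kb). The inhibitor PSMF1 and the base chaperone PSMD9 were among the lowest tested genes, at 3.60 and 2.23 CPM per kb. These values are a description, since the exon lengths came from a later annotation than the counts. Because 16 of the genes have 42 named pseudogenes between them, 13 for PSMC1 and 6 for PSME2, and reads that mapped to several places were not counted, levels of such genes may be understated.

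IFN-α raised most of the proteasome genes by small amounts and both PA28 genes by larger ones. PSME2, the β subunit of PA28, was at 151, 163 and 156 CPM in the CTRL libraries of day 4 and at 362, 371 and 338 CPM with IFN-α. The IFN-α libraries were above every other library of the study, the highest of which reached 245 CPM. The log2 fold change was 1.19 ± 0.07 (SE; 2.28-fold; adjusted p = 4.25e-17, quasi-likelihood test of edgeR, adjusted by Benjamini-Hochberg, as for all adjusted p-values of gene and intron levels here). PSME1, its α subunit, rose from 131, 145 and 145 CPM to 254, 272 and 242 CPM, a log2 fold change of 0.86 ± 0.07 (adjusted p = 2.81e-13). The groups did not overlap for either gene. PSME2 was the 1 proteasome gene past the threshold with at least a 2-fold change, a rule that 1.32% of all tested genes met. In all, 27 of the 45 tested genes were higher and 0 were lower, where 10.9% of all 13193 tested genes were higher and 9.65% lower. At an unadjusted p under 0.05, 30 were higher and 0 lower, and limma-voom and DESeq2 also called 0 lower. The median log2 fold change of the proteasome genes was 0.21, against -0.00 for all tested genes.

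The higher genes were spread over both particles, and differences between roles were not tested. Of the 13 core genes other than PSMB10, 12 were higher, with a median log2 fold change of 0.29. PSMA4, an α-ring gene, was at 151, 181 and 184 CPM in CTRL and at 240, 255 and 239 CPM with IFN-α (log2 fold change 0.51 ± 0.07, adjusted p = 1.34e-06). The α-ring genes PSMA2 (0.43 ± 0.09, adjusted p = 0.000554) and PSMA3 (0.42 ± 0.05, adjusted p = 1.4e-07) followed. PSMA3 went from 106 to 124 CPM in CTRL to 151 to 163 CPM, and PSMA2, a much lower gene by count, from 8.45 to 9.28 CPM to 11.4 to 12.5 CPM, in both cases without overlap. PSMA7 was the core gene that did not pass the test, at a log2 fold change of 0.08 (adjusted p = 0.342). Of the 17 regulatory particle genes 11 were higher (median 0.22), led by the lid subunit PSMD11, which rose from between 63.2 and 64.4 CPM to between 82.9 and 84.6 CPM (0.39 ± 0.04, adjusted p = 3.17e-10). Of the 7 chaperones, 1 passed the test, the core chaperone PSMG1 (0.23, adjusted p = 0.0227). Among the remaining activators PSME3 was higher (0.23, adjusted p = 0.00158), while PSME4 (0.18, adjusted p = 0.316) and the inhibitor PSMF1 (0.04) did not pass.

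The 3 constitutive catalytic genes all rose with IFN-α, whereas the inducible subunit among the tested genes did not. PSMB5, the chymotrypsin-like subunit, was at 76.5, 79.8 and 82.6 CPM in CTRL and at 93.1, 102 and 98.3 CPM with IFN-α (log2 fold change 0.29 ± 0.06, adjusted p = 0.000438). PSMB6, the caspase-like subunit, was at 43.3, 46.2 and 48.4 CPM and then at 55.2, 59.6 and 55.8 CPM (0.31 ± 0.08, adjusted p = 0.00307). PSMB7, the trypsin-like subunit, was at 69.8, 73.6 and 72.9 CPM and then at 80.7, 90.9 and 85.5 CPM (0.25 ± 0.05, adjusted p = 0.00065). No IFN-α library overlapped CTRL for these genes. PSMB10, which replaces PSMB7 in the immunoproteasome, was at 88.1, 88.1 and 89.3 CPM in CTRL and at 93.3, 102 and 80.2 CPM with IFN-α, values on both sides of the CTRL libraries (0.06 ± 0.06, adjusted p = 0.611). The other inducible subunits lie outside the name rule. PSMB8, which replaces PSMB5, rose from 123 to 135 CPM to 216 to 234 CPM (0.80, adjusted p = 1.57e-10). PSMB9, which replaces PSMB6, was low and variable, at 10.5 to 17.5 CPM and then 16.4 to 31.8 CPM (0.96, adjusted p = 0.259).

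**Figure D1:**
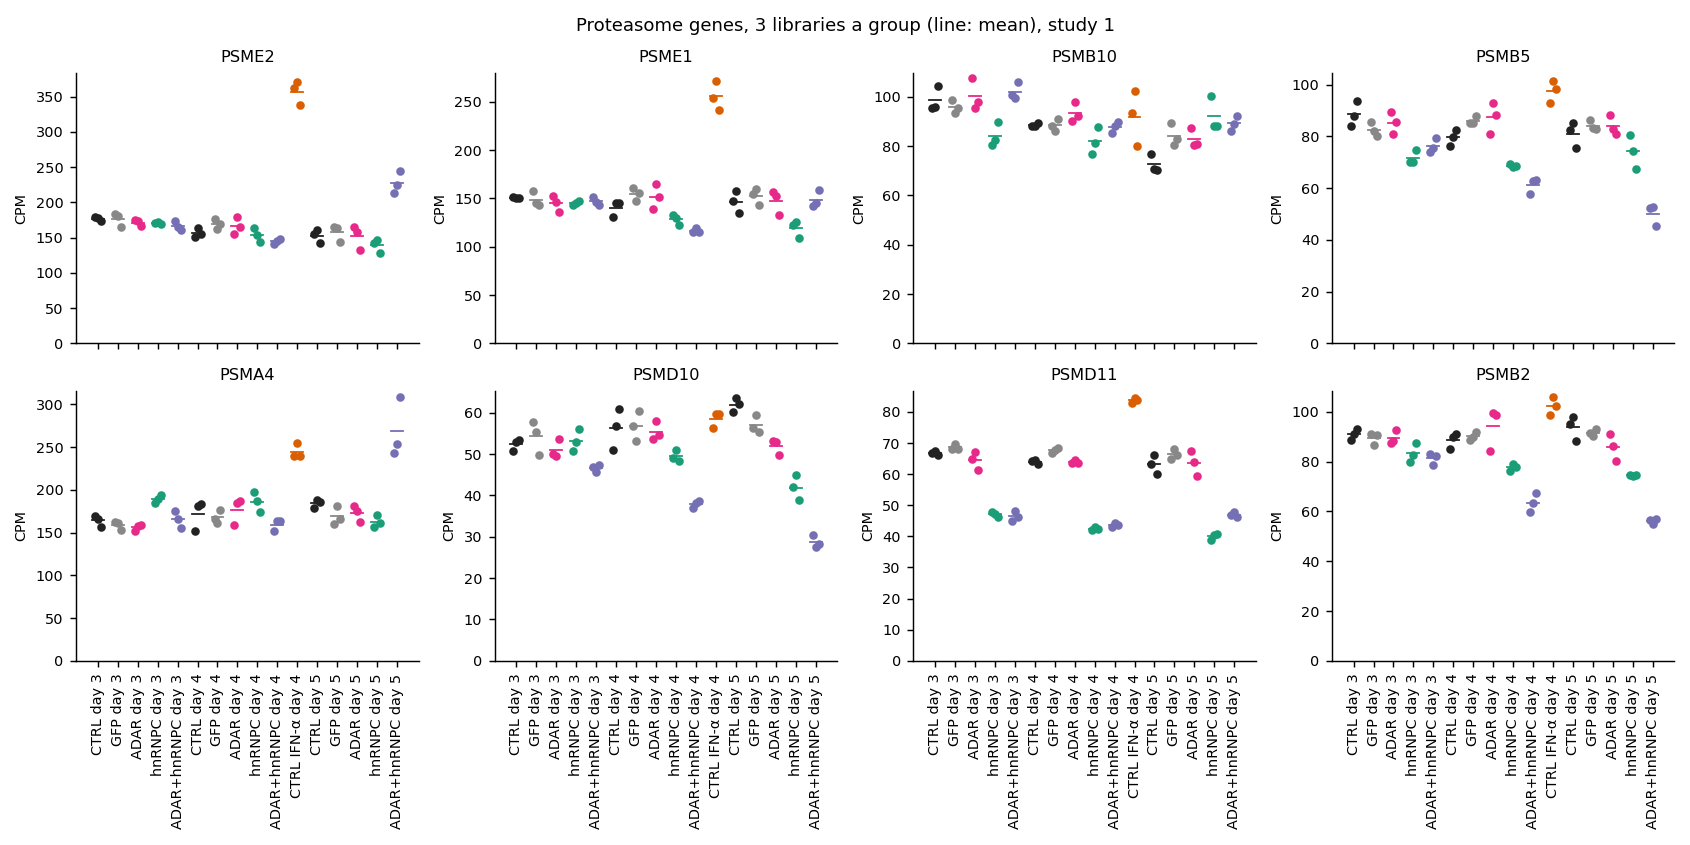
CPM of 8 proteasome genes in each library of the first study, by gRNA group and day, with dots for libraries and a line for each group's mean (n = 3). PSME2 and PSME1 were highest with IFN-α, PSME2 was also high in ADAR+hnRNPC cells on day 5, and PSMD10 was lowest there at 27.6 to 30.3 CPM.

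Promoter sequence was available for 41 of the 47 genes (RefSeq, GRCh38.p14, 250 bases before to 50 bases after the start). The interferon-stimulated response element, searched on both strands as GAAA, any pair of bases and GAAA again, was found in 6 of the 51 promoters of these genes (11.8%, 1 in each of 6 genes) and in 3.57% of all 35116 promoters of that length. The 6 windows are shown because they fell on the PA28 genes and on genes that did and did not move with IFN-α. Each is read 5′ to 3′ on the gene's strand, and capitals mark the match.
PSME2, chr14:24146621-24146646, minus strand: tggggagtGAAAGCGAAAgcccgggc
PSME1, chr14:24136191-24136216, plus strand, match on the opposite strand: cctaccgcTTTCGCTTTCccttcgcg
PSMB10, chr16:67936854-67936879, minus strand: gtaaaggcGAAAGCGAAAgcaggaag
PSMG4, chr6:3258906-3258931, plus strand: ccggggccGAAAGCGAAAgcgcgctc
PSMB4, chr1:151399497-151399522, plus strand: gtctacagGAAAAAGAAAgaaatgac
PSMA4, chr15:78540157-78540182, plus strand: agtgaagaGAAAATGAAAggagagcg
The windows of PSME2, PSME1, PSMB10 and PSMG4 held the same 10 letters, GAAAGCGAAA, read on one strand or the other. Their log2 fold changes with IFN-α were 1.19, 0.86, 0.06 and 0.18, so that genes with the same letters included the 2 largest changes and 2 that did not pass the test (PSMG4, a core chaperone, adjusted p = 0.156). PSMB4 and PSMA4, whose matches differed in the middle letters, rose by 0.18 (adjusted p = 0.013) and 0.51. The antioxidant response element TGACNNNGC, bound by NRF1 and NRF2, was in 13 of the 51 promoters (25.5%, against 13.3% of all promoters), and CCAAT in 22 (43.1%, against 34.6%). The gamma-activated site, also searched, as TTCNNNGAA, was in 7 of the 51 promoters (13.7%, against 7.66% of all promoters). A match is a description of letters and not of binding.

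Targeting hnRNPC moved the proteasome genes in both directions, and the lower calls came to include the whole α ring by day 5. On day 3, 8 genes were higher and 10 lower (18.4% and 21.1% of all tested genes), on day 4 13 were higher and 8 lower (26.7% and 26.8%), and on day 5 11 were higher and 15 lower (34.6% and 31.2%). Their median on day 5 was 0.01, against 0.03 for all genes. These shares were close to the background. All 7 α-ring genes were lower on day 5, with a median log2 fold change of -0.30 and a range from -0.49 to -0.18, where 1 had been higher on day 3 and 1 lower on day 4. Against the same CTRL libraries of day 5, the α-ring median was -0.08 with the GFP gRNA, where 0 were called. With the ADAR gRNA it was -0.11, with 1 gene lower. Of the 13 core genes other than PSMB10 8 were lower, while 7 of the 17 regulatory particle genes were higher and 2 lower. None of the 3 constitutive catalytic genes passed the test in either direction: PSMB5 was at 80.8, 74.3 and 67.5 CPM against 82.6, 85.2 and 75.6 CPM in CTRL (-0.13, adjusted p = 0.0594), PSMB6 at -0.03 and PSMB7 at 0.01. Without a filter on low counts the day 5 split was 6 higher and 16 lower, a setting for which no share of all genes is given.

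Among the lower genes PSMD11, a lid subunit, had the lowest log2 fold change of the 45 on each day. It was at 63.4, 66.2 and 59.9 CPM in CTRL on day 5 and at 38.8, 40.4 and 40.8 CPM with the hnRNPC gRNA, without overlap. Its difference from CTRL was -0.50 on the log2 scale on day 3 and -0.59 the day after, and reached -0.66 ± 0.04 by day 5 (adjusted p = 3.25e-17). PSMD10, also known as gankyrin, is a chaperone of the base that occurs free of the finished proteasome. It was at 60.3, 63.6 and 62.1 CPM in CTRL and at 42.1, 44.9 and 38.8 CPM on day 5 (-0.56 ± 0.06, adjusted p = 1.44e-10), after -0.18 on day 4. Among the α-ring genes PSMA1 went from 45.9, 47.2 and 48.4 CPM to 33.0, 34.7 and 32.7 CPM (-0.49 ± 0.06, adjusted p = 2.57e-09), and PSMA3 from 121, 127 and 120 CPM to 88.3, 92.0 and 94.5 CPM (-0.42 ± 0.05, adjusted p = 1.49e-08). PSMA2 went from between 9.08 and 9.81 CPM to between 6.79 and 7.89 CPM (-0.35 ± 0.09, adjusted p = 0.00106). Groups did not overlap for these 3 genes. In GFP-targeted cells of day 5 PSMA3 was at 107 to 113 CPM and PSMD10 at 55.3 to 59.4 CPM. Both lay below CTRL without overlap but above the hnRNPC libraries. For PSMA1, PSMA2 and PSMD11 the GFP libraries overlapped CTRL. PSME1 was lower as well (-0.30, adjusted p = 0.000165), at 123, 126 and 110 CPM against 147, 157 and 135 CPM, while PSME2 was at 143, 147 and 128 CPM against 155, 160 and 142 CPM (-0.13, adjusted p = 0.0828, or 0.0445 with the replicate block).

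The higher genes on day 5 included ATPases, lid subunits and the inducible catalytic subunit. PSMC3IP had the largest change (0.45 ± 0.12, adjusted p = 0.00122), from between 6.79 and 7.50 CPM to between 9.23 and 10.4 CPM, but is not a subunit. PSMC5, an ATPase, went from 56.8, 57.2 and 51.9 CPM to 76.0, 74.9 and 69.2 CPM (0.41 ± 0.05, adjusted p = 3.08e-09). PSMD3, a lid subunit, went from 138, 132 and 138 CPM to 183, 175 and 180 CPM (0.40 ± 0.04, adjusted p = 3.92e-10). The base chaperone PSMD5 rose from between 23.3 and 26.0 CPM to between 30.2 and 32.8 CPM (0.35 ± 0.07, adjusted p = 2.18e-05). PSMB10 was at 76.9, 70.8 and 70.2 CPM in CTRL and at 100, 88.3 and 88.1 CPM with the hnRNPC gRNA (0.35 ± 0.06, adjusted p = 1.58e-05), although it had been lower on day 3 (-0.23). The CTRL libraries of day 5 were low for PSMB10: in GFP-targeted cells of the same day it was at 89.3, 80.6 and 82.8 CPM, itself past the test against CTRL (0.21). All comparisons of a day share the CTRL libraries.

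The change of the hnRNPC effect between day 3 and day 5 was itself past the test for 21 genes, 10 with a larger (more positive) and 11 with a smaller log2 fold change on day 5 (25.3% and 24.5% of all tested genes). With DESeq2's size factors the split was 7 and 14. Of the 7 α-ring genes 5 were among the 11, with a median difference of -0.36. For the ADAR+hnRNPC effect 8 genes were larger and 15 smaller on day 5 than on day 3 (31.4% and 25.4%), and the 15 held all 3 catalytic and all 3 structural β genes.

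**Figure D2:**
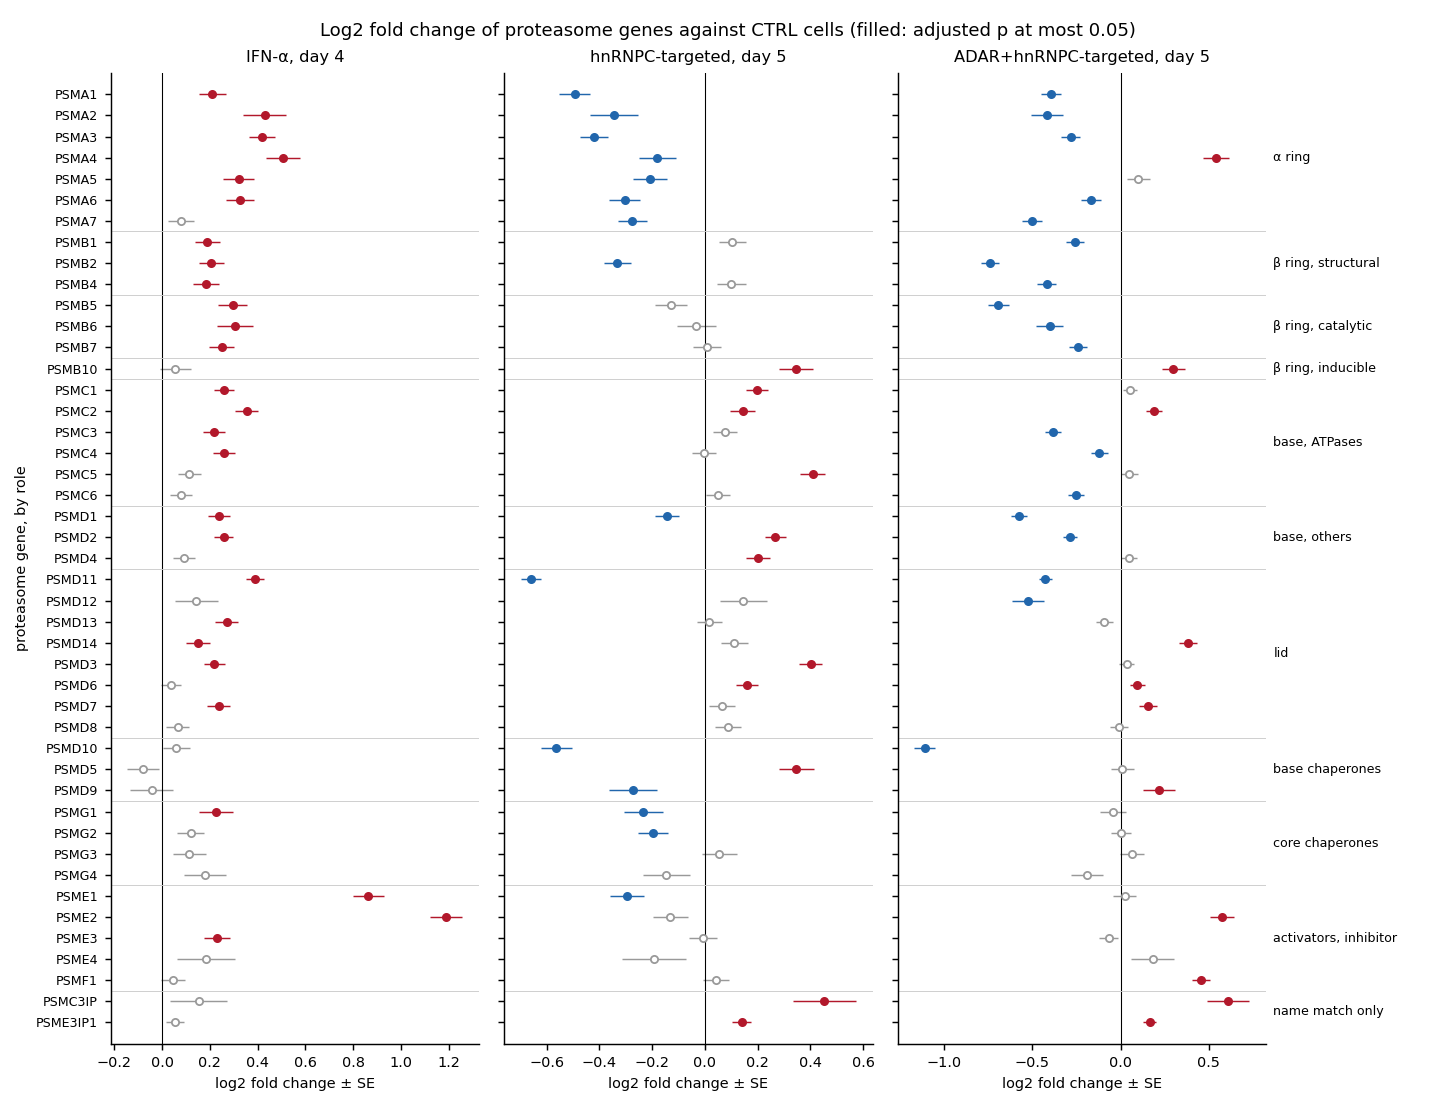
Log2 fold change ± SE of the 45 tested proteasome genes, grouped by role, for IFN-α on day 4, hnRNPC on day 5 and ADAR+hnRNPC on day 5, each against CTRL of the same day (n = 3 libraries per group). Filled symbols passed an adjusted p of 0.05, red for higher and blue for lower: the IFN-α column is red with 27 genes, and the α ring is blue in all 7 genes with hnRNPC.

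Targeting ADAR and hnRNPC together lowered most of the core particle while raising PSME2 and PSMA4. On day 3, 3 genes were higher and 7 lower (14.9% and 15.5% of all tested genes), on day 4 5 and 14 (30.3% and 28.3%), and on day 5 11 and 19 (40.2% and 34.2%). By day 5, 11 of the 13 core genes other than PSMB10 were lower, with a median log2 fold change of -0.40, including all 3 catalytic and all 3 structural β genes, against 8 on day 4 and 2 on day 3. The regulatory particle had 4 higher and 7 lower of 17. The median of all proteasome genes was -0.04, against 0.05 for all tested genes. Without a filter on low counts the split was 6 higher and 19 lower, again with no share of all genes beside it. The summed level of the genes was 4356 to 4443 CPM, just below the 4526 to 4792 CPM of CTRL on day 5.

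PSMD10 fell the most and was the 1 proteasome gene past 2-fold, a rule met by 15.5% of all tested genes. It was at 36.9, 38.1 and 38.8 CPM on day 4 and at 30.3, 27.6 and 28.3 CPM on day 5, against 60.3, 63.6 and 62.1 CPM in CTRL on day 5. The log2 fold change went from -0.17 on day 3 and -0.57 on day 4 to -1.11 ± 0.06 on day 5 (0.464-fold, adjusted p = 6.51e-19). PSMB2, a structural β subunit, was at 95.1, 98.1 and 88.3 CPM in CTRL and at 56.5, 54.8 and 57.1 CPM (-0.74 ± 0.05, adjusted p = 1.2e-15). PSMB5 was at 52.5, 52.9 and 45.2 CPM, below the CTRL, hnRNPC and IFN-α libraries quoted above (-0.69 ± 0.06, adjusted p = 9.2e-13). The other catalytic genes fell less: PSMB6 to 38.6, 37.4 and 32.1 CPM from 46.6, 52.2 and 43.8 CPM (-0.40 ± 0.08, adjusted p = 1.34e-05) and PSMB7 to 61.6, 61.4 and 58.7 CPM from 71.5, 76.7 and 66.6 CPM (-0.24 ± 0.05, adjusted p = 0.000111). In the regulatory particle, the base scaffold PSMD1 went from 174, 182 and 173 CPM to 119, 119 and 117 CPM (-0.57 ± 0.05, adjusted p = 8.46e-14). The lid subunit PSMD12 went from between 80.5 and 86.4 CPM to between 56.4 and 60.1 CPM (-0.52 ± 0.09, adjusted p = 3.01e-06). No group overlapped CTRL for any gene of this paragraph.

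Genes that rose on day 5 belonged to several roles. PSME2 was at 141, 146 and 147 CPM on day 4 and at 214, 224 and 245 CPM on day 5, against 155, 160 and 142 CPM in CTRL (0.58 ± 0.07, adjusted p = 1.05e-09). Its partner PSME1 was at 142, 146 and 159 CPM against 147, 157 and 135 CPM, with overlap (0.02 ± 0.07, adjusted p = 0.752). PSMA4 was at 243, 254 and 308 CPM against 178, 189 and 186 CPM (0.54 ± 0.07, adjusted p = 2e-08), the 1 higher gene among the 13 core genes counted without PSMB10. The inhibitor PSMF1 rose from between 27.7 and 28.9 CPM to between 36.4 and 40.9 CPM (0.45 ± 0.05, adjusted p = 3.07e-10), and PSMD14, the deubiquitinase of the lid, from 122, 125 and 124 CPM to 164, 159 and 161 CPM (0.38 ± 0.05, adjusted p = 2.2e-08). PSMC3IP was higher as well (0.61 ± 0.12, adjusted p = 2.5e-05), at 10.2 to 11.6 CPM. PSMB10 was at 86.3, 89.2 and 92.2 CPM (0.30 ± 0.06, adjusted p = 9.5e-05), overlapping the libraries with the hnRNPC gRNA alone. Outside the name rule PSMB8 was at 204 to 264 CPM against 111 to 129 CPM (0.89, adjusted p = 4.71e-13). Set beside the IFN-α values, PSMB8 (0.80 and 0.89) and PSMA4 (0.51 and 0.54) had like log2 fold changes, PSME1 (0.86 and 0.02) and PSMB5 (0.29 and -0.69) did not, and these differences between treatments on different days were not tested.

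The interaction on day 5 asked whether the hnRNPC effect was another with the ADAR gRNA than without it. It was higher with the ADAR gRNA for 12 genes and lower for 19 (25.0% and 24.9% of all 13433 tested genes), with a median of -0.13 against -0.02 for all genes. PSMA4 (0.81 ± 0.11, adjusted p = 7.23e-05) and PSME2 (0.71 ± 0.12, adjusted p = 0.000359) had the largest positive terms, followed by the activator PSME4 (0.39 ± 0.10, adjusted p = 0.00595). PSMA4 shows the term in its levels: it was at 157, 170 and 162 CPM with hnRNPC alone, below CTRL, and at 243, 254 and 308 CPM with both gRNAs, above CTRL. PSMB5 (-0.62 ± 0.11, adjusted p = 0.000457) and PSMD2, a base scaffold (-0.56 ± 0.07, adjusted p = 4.37e-05), had the largest negative terms. By role, 5 α-ring genes had a positive and 1 a negative term, 4 of the 5 activator and inhibitor genes a positive one, and all 3 structural β genes and all 3 base genes that are not ATPases a negative one. PSMD10, the gene that fell the most, had a term of -0.30 (adjusted p = 0.0108).

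The ADAR gRNA alone and the GFP control gRNA each moved few proteasome genes on day 5. With the ADAR gRNA 4 genes were higher and 4 lower (7.09% and 5.03% of all tested genes), from PSMD9 at 0.32 to PSMD12 at -0.31. PSMD12 was at 67.5, 68.3 and 65.6 CPM with the ADAR gRNA, at 86.1, 98.3 and 90.9 CPM with the hnRNPC gRNA and at 82.0, 86.4 and 80.5 CPM in CTRL, so that the ADAR libraries lay below both. With the GFP gRNA 3 were higher (PSMB10, PSMD3 and PSMD2, at 0.21, 0.19 and 0.12) and 0 lower in edgeR (7.9% and 2.09%). At an unadjusted p under 0.05, 8 were higher and 4 lower, and the count of lower genes was 0 by limma-voom and 2 by DESeq2. With DESeq2's size factors the splits were 2 higher and 6 lower for ADAR and 1 and 2 for GFP. Since GFP and hnRNPC share the CTRL libraries, the calls of PSMB10, PSMD3 and PSMD2 in both are not independent.

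Reads in introns of the proteasome genes were counted in the first study. Of their 429 introns 105, in 38 genes, had enough reads to test among 21876 introns, and with the hnRNPC gRNA on day 5 7 were higher and 4 lower (14.9% and 11.7% of all tested introns). PSMA1 held both the intron that rose the most and the one that fell the most. An intron of 2618 bases (chr11:14532498-14535115, GRCh37) was at 4.00, 3.24 and 3.81 CPM of intron reads in CTRL and at 17.1, 15.7 and 15.9 CPM with the hnRNPC gRNA (2.14 ± 0.22, adjusted p = 1.23e-09). The same intron was already at 8.83 to 12.9 CPM on day 3, against 3.07 to 4.62 CPM in CTRL. It was at 12.4 to 14.7 CPM in ADAR+hnRNPC cells on day 5 and stayed at 3.42 to 3.85 CPM with the GFP or ADAR gRNA, so that among the groups given here it was high in those with the hnRNPC gRNA. A neighbouring intron of 502 bases (chr11:14535434-14535935) went the other way, from 6.34, 5.60 and 7.41 CPM to 2.72, 3.02 and 3.70 CPM (-1.04 ± 0.23, adjusted p = 0.000805). A long intron of the gene (chr11:14542243-14665181) was lower too (-0.55 ± 0.11, adjusted p = 0.000108), about as much as the gene's exon counts (-0.49).

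**Figure D3:**
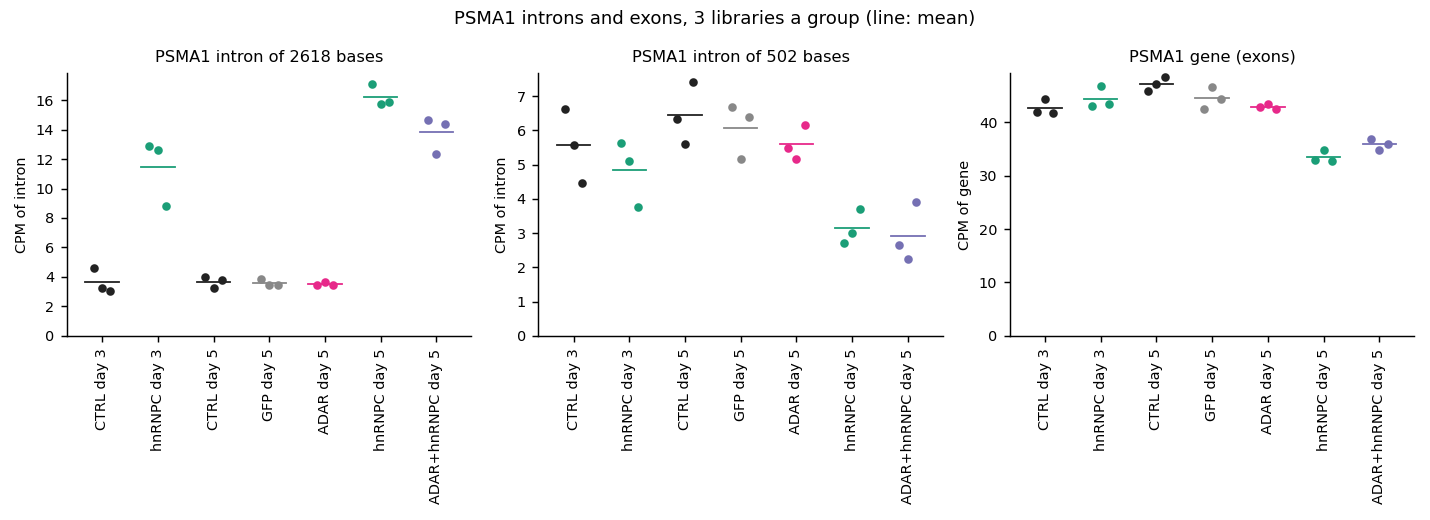
CPM of intron reads in 2 neighbouring introns of PSMA1 (2618 and 502 bases) and CPM of the gene's exon reads, per library with the group mean, for CTRL and hnRNPC on day 3 and for the 5 gRNA groups on day 5. The longer of the introns is above CTRL in the hnRNPC libraries of both days and in the ADAR+hnRNPC libraries of day 5, whereas the shorter one and the gene are below CTRL in the hnRNPC libraries on day 5 and overlap CTRL on day 3.

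The next highest intron changes lay in PSMG2, a core chaperone (chr18:12712760-12718515), at 3.61, 1.67 and 2.56 CPM in CTRL and 6.93, 6.47 and 6.35 CPM (1.34 ± 0.33, adjusted p = 0.00191), and in PSME3IP1 (chr16:57201139-57206162), at 2.14 to 3.36 CPM and then 5.79 to 6.50 CPM (1.10 ± 0.19, adjusted p = 2.15e-05). Groups did not overlap for either. A lower one lay in the ATPase gene PSMC6 (chr14:53187909-53190682, -0.72 ± 0.26, adjusted p = 0.0331). Introns were defined as gene sequence outside the exons of principal transcripts, so reads there can come from unspliced RNA, from exons of other transcripts or from other genes on the same strand, which these counts do not separate.

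A-to-I editing was read as the edited share of the high-quality reads covering listed sites. The authors found these sites in the same RNA-seq data and required a minimum of editing in some sample with intact ADAR. That choice favours higher values in such samples than with the ADAR gRNA, and its part in the differences was not tested. The proteasome genes held 1630 listed sites, of which 90 had at least 10 reads in every library. They lay in 5 genes: 34 in PSMD12, 20 in PSMA1, 17 in PSMB2, 11 in PSMD7 and 8 in PSME3IP1. Summed over these sites, each library had 3627 to 9217 reads. In CTRL 4.79% of the reads were edited (4.37 to 5.35%, SD 0.356, n = 9 over 3 days) and with the ADAR gRNA 1.72% (1.54 to 2.06%, SD 0.175, n = 9), so the groups did not overlap. The difference was -3.07 percentage points (exact permutation test within days, two-sided, p = 0.00025, the smallest that the 8000 assignments can give). Cells were harvested on successive days after nucleofection, so libraries of different days can share an experiment. The n = 9 libraries of a group are then not 9 independent experiments. The test counted harvests of different days as independent, so its p can be too small and describes libraries rather than experiments.

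Editing ranked PSMB2 first among the 5 genes. Its sites went from 7.43% in CTRL to 2.91% with the ADAR gRNA (exact permutation p = 0.00025), those of PSME3IP1 from 5.28 to 1.77% (p = 0.001), those of PSMD12 from 3.60 to 0.830% (p = 0.00025) and those of PSMA1 from 0.946 to 0.251% (p = 0.00075), all by the same exact test and not adjusted over the 5 genes. The sites of PSMD7 were at 0.769 and 0.283% (exact permutation p = 0.125). The p-values of the 5 genes have the same limit, because harvests of different days were counted as independent. IFN-α went with more editing, 11.9% ± 0.477 (SD, n = 3) against 4.49 to 4.88% in CTRL on day 4. The groups did not overlap, and 3 libraries against 3 cannot give a p below 0.1 in an exact test. ADAR mRNA was at 1055 to 1315 CPM in those libraries. ADAR+hnRNPC cells were at 2.03% on day 3, 1.71% on day 4 and 3.09% (2.96 to 3.28%) on day 5, when ADAR mRNA had reached 1197 to 1617 CPM. hnRNPC alone was at 4.29 to 4.68% on day 5 (mean 4.51%) and CTRL of that day at 4.60 to 5.35%, with overlap.

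In the second study cytosolic RNA was compared with total RNA. In the mean of the 4 gRNA groups PSME4, PSME3 and PSMF1 rose the most in cytosolic over total RNA. PSMF1 was barely above PSMC5 and PSMD5, and PSMC1, PSMD3, PSMD6 and PSMD1 were depleted. Averaged over the 4 gRNA groups, 19 genes were higher in cytosolic than in total RNA and 4 lower (35.4% and 35.2% of all 13650 tested genes), with a median of 0.09 against 0.02 for all genes. The share of higher genes was near that background. Without the 3 libraries that stood apart 11 were higher and 4 lower, and without a filter on low counts 35 and 2, since that scaling raised the values by 0.15. Mitochondrial mRNAs checked the fractions: they summed to 22.9 to 45.4 CPM in cytosolic and to 1659 to 3874 CPM in total RNA. The nuclear RNAs MALAT1 and NEAT1 were less well separated. They summed to 401 to 1038 CPM in cytosolic and to 880 to 3382 CPM in total RNA, with overlap, and to 2623 to 2949 CPM in the nuclear pellet.

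PSME4 (PA200), an activator of nuclear proteasomes, had the largest rise in cytosolic over total RNA in the mean of the groups, but not in every group. It was at 131 to 199 CPM in the 8 cytosolic libraries, while the total RNA libraries split into 5 at 54.4 to 69.5 CPM and the 3 that stood apart at 144 to 169 CPM. The log2 difference was 0.84 ± 0.13 (adjusted p = 5.04e-05) and became 1.46 over the CTRL, hnRNPC and ADAR groups without those 3. In ADAR+hnRNPC cells the order was reversed, at 131 and 140 CPM in cytosol and 144 and 167 CPM in total RNA. In each other gRNA group both cytosolic libraries were above both total RNA libraries. In hnRNPC cells PSME4 was at 164 and 144 CPM in cytosol and at 132 and 159 CPM in the nuclear pellet, with overlap. Total RNA of these cells was below both fractions, at 54.4 and 57.0 CPM, so the rise over total RNA does not show enrichment over the nucleus. Why total RNA was lower was not tested. PSME3, the PA28γ activator, was at 109 to 156 CPM in cytosolic and 69.4 to 110 CPM in total RNA (0.64 ± 0.09, adjusted p = 2.11e-05), the 3 libraries again giving the highest total RNA values. PSMF1 was at 45.0 to 51.9 CPM in cytosolic and 32.4 to 40.3 CPM in total RNA, without overlap (0.45 ± 0.05, adjusted p = 8.6e-07), and at 24.9 and 27.3 CPM in the nuclear pellet. PSMC5 (0.44 ± 0.06) and PSMD5 (0.44 ± 0.08) followed, at 75.2 to 95.2 against 52.0 to 68.8 CPM and at 28.8 to 40.3 against 19.0 to 31.5 CPM. Without the 3 libraries that stood apart, PSMD5 (0.67) and PSMC5 (0.59) were above PSMF1 (0.50). The PA28 genes did not pass, PSME1 at 0.09 (adjusted p = 0.235) and PSME2 at 0.00 (adjusted p = 0.963).

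The depleted genes were PSMC1, an ATPase (-0.36 ± 0.07, adjusted p = 0.000243), PSMD3 (-0.34 ± 0.06, adjusted p = 9.85e-05), the lid subunit PSMD6 (-0.31 ± 0.05, adjusted p = 9.76e-05) and PSMD1 (-0.21 ± 0.06, adjusted p = 0.00396). PSMC1 was at 156 and 133 CPM in CTRL total RNA and 106 and 96.2 CPM in CTRL cytosol, at 173 and 190 against 100 and 108 CPM in hnRNPC cells, and at 144 and 139 against 144 and 145 CPM in ADAR+hnRNPC cells, where the fractions overlapped. PSMD3 was at 133 to 157 CPM in cytosol and 146 to 219 CPM in total RNA. Without a filter on low counts PSMD1 (-0.06, adjusted p = 0.658) and PSMD6 (-0.16, adjusted p = 0.0513) no longer passed. Within hnRNPC cells the cytosol was also set against the nuclear pellet: 23 genes were higher and 4 lower (34.8% and 34.0% of all tested genes), with a median of 0.27 against 0.03. The 4 lower genes were the same by name, PSMC1 at -0.87, PSMD1 at -0.53, PSMD3 at -0.50 and PSMD6 at -0.49, but the hnRNPC cytosolic libraries enter both comparisons. PSMF1 (0.89), PSMD10 (0.83) and PSMB6 (0.70) were the highest.

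**Figure D4:**
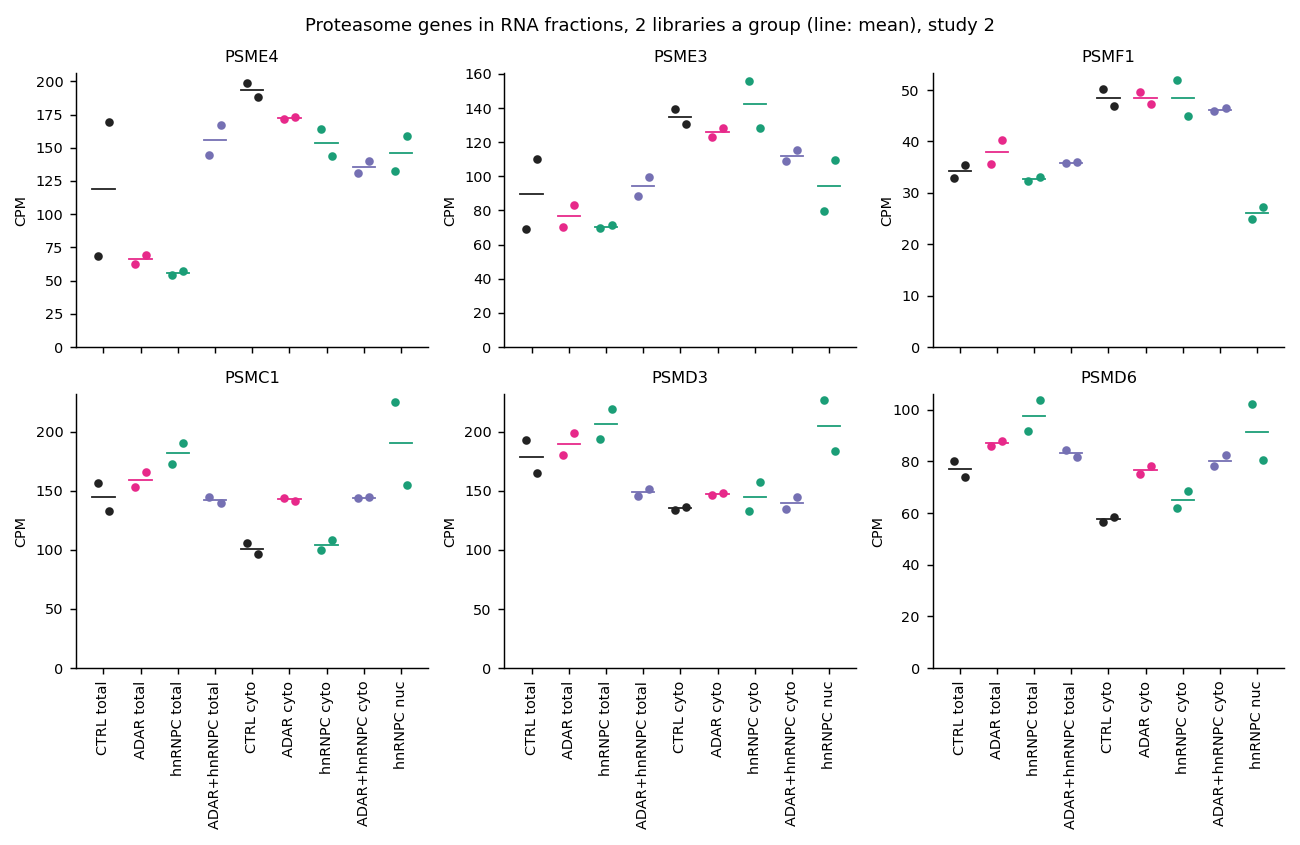
CPM of 6 proteasome genes in each library of the second study (n = 2 per group), by fraction and gRNA group, with the group mean. Averaged over the gRNA groups, PSME4, PSME3 and PSMF1 are high and PSMC1, PSMD3 and PSMD6 low in cytosolic against total RNA. For PSME4, CTRL total replicate 2 lies near the cytosolic level, and the ADAR+hnRNPC total libraries lie above the cytosolic libraries of the same cells.

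The gRNA comparisons in total RNA of the second study rested on few libraries. Shares of all tested genes are given for the fit of all libraries only. Counts with a library left out therefore do not tell whether proteasome genes moved more than other genes. With the hnRNPC gRNA 1 gene was higher and 2 lower (2.81% and 4.37% of all tested genes; 1 gene past 2-fold, against 0.637% of all). PSMD11 was lower (-0.42, adjusted p = 0.0153), beside -0.59 on day 4 of the first study with another gRNA and clone. PSME4 was lower as well (-1.09, adjusted p = 0.027), at 54.4 and 57.0 CPM, but its CTRL libraries were at 68.2 and 169 CPM, and without CTRL replicate 2 the change was -0.29 (adjusted p = 0.281). Without that library no proteasome gene passed, and without CTRL replicate 1 12 were higher and 5 lower. With the ADAR+hnRNPC gRNAs 1 gene was higher (PSMC3IP, 0.48) and 7 lower (17.1% and 17.2%). The 7 included PSMB2 (-0.50), PSMB5 (-0.40), PSMD10 (-0.36), PSMB4 (-0.31) and PSMB7 (-0.25), and also PSMB10 (-0.32). In the first study PSMB10 did not pass on the matching day 4 (-0.01) and was higher on day 5. Both ADAR+hnRNPC libraries and CTRL replicate 2 are the ones that stood apart, and without CTRL replicate 2 the counts were 3 higher and 12 lower.

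Genes that act with the proteasome but carry other names were followed as a list of 27, comprising assembly factors, ubiquitin shuttles, the transcription factors NFE2L1 and NFE2L2 with the enzymes that activate NFE2L1, the VCP complex and the ubiquitin genes. With IFN-α 8 of the 27 passed the test and all 8 were higher, with a median of 0.10, where 10.9% of all tested genes were higher. With the hnRNPC gRNA on day 5 10 were higher and 11 lower (34.6% and 31.2% of all genes), and with both gRNAs 8 were higher and 14 lower (40.2% and 34.2%). NFE2L1, known as NRF1, which induces proteasome genes when the proteasome is inhibited, was the 1 gene of the list with at least a 2-fold change there. It was at 105 to 117 CPM in CTRL on day 5, at 186 to 195 CPM with the hnRNPC gRNA (0.79) and at 218 to 234 CPM with both (1.03), without overlap between the groups, and the interaction did not pass (0.07, adjusted p = 0.481). In the second study 20 of the 27 were higher and 3 lower in cytosolic than in total RNA (35.4% and 35.2% of all genes; median 0.29), and NFE2L1 was the most depleted, at -1.69 against total RNA and at -2.80 against the nuclear pellet. RAD23B, a ubiquitin shuttle, was the opposite, at 1.59 against the pellet. USP14, a deubiquitinase of the regulatory particle, was lower with the hnRNPC gRNA in total RNA (-1.40), where its CTRL libraries differed from each other at 22.5 and 84.3 CPM.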

How the data were processed

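RNA was sequenced from rRNA-depleted, stranded total RNA libraries. The authors aligned reads to GRCh37 with STAR 2.5.4a and deposited raw gene counts of uniquely mapped reads over GENCODE v19 exons (featureCounts), counts of intron reads, and counts of edited and of all high-quality reads per editing site. From these counts, genes with an average log2 CPM of at least 0.5 (introns, 1) were kept over the whole table, scaled by TMM and tested with edgeR 4.0.16 in R 4.3.3 (quasi-likelihood, Benjamini-Hochberg), with 1 fit per study and a fit of the day 5 libraries for the interaction. A gene was called at an adjusted p of at most 0.05. Shares of all tested genes are given for these main fits only, so counts under other settings have no background beside them. The authors' own method, limma-voom (limma 3.58.1), and DESeq2 1.42.0 served as alternatives. Gene names and exon lengths came from GENCODE v44lift37. Editing was compared by an exact permutation test within days, which counted harvests of different days as independent.

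The proteasome genes and the lists were chosen with earlier results of these data known. Named genes were the PA28 and catalytic genes, genes past 2-fold, and up to 5 higher and 5 lower genes by size in IFN-α, hnRNPC day 5, ADAR+hnRNPC day 5 and cytosolic against total RNA; the 3 introns with the largest change in each direction were named. Other genes were named after their values were seen. Samples were grouped by GEO's labels. Median depth was 119947485 gene counts in the first and 60653526 in the second study, and 25660322 intron counts. Replicate numbers are shared between groups. Same-numbered libraries deviated from their group means with correlations of -0.21 to 0.75, above 0.1 in 24 of 33 pairs and in every pair of hnRNPC on days 4 and 5, ADAR+hnRNPC on days 3 and 4, ADAR on day 5 and GFP on day 5, where the numbers pair the libraries. No libraries agreed within counting error. The edgeR fits for hnRNPC on day 5, the interaction, cytosolic against total RNA and the introns were tried on simulated counts. Those counts had 1 fixed spread for all genes and introns and no pairing of libraries, unlike the data.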

Additional observations from a re-analysis of the deposited data

Results flagged for a closer look

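The hnRNPC effect differed between day 5 and day 3, by a test of the difference, in 10 proteasome genes where it was larger (more positive) and in 11 where it was smaller (25.3% and 24.5% of all tested genes, shares that the 45 genes did not exceed). PSMB10 (0.57 on the log2 scale) and PSMD3 (0.46) had the largest positive differences, and PSMD10 (-0.59) and PSMA1 (-0.55) the largest negative ones.

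The ADAR+hnRNPC effect differed in the same way in 8 genes where it was larger on day 5 and in 15 where it was smaller, beside 31.4% and 25.4% of all tested genes. PSME2 (0.66) and PSME4 (0.59) led the former, PSMD10 (-0.94) and PSMD12 (-0.59) the latter.

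The hnRNPC effect on day 5 differed between cells with and without the ADAR gRNA, by the interaction term, with a positive term in 12 genes and a negative one in 19, beside 25.0% and 24.9% of all tested genes. The largest were those of PSMA4 (0.81), PSME2 (0.71), PSMB5 (-0.62) and PSMD2 (-0.56). Comparisons of a day share the CTRL libraries, and both day differences share those of days 3 and 5.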

How the results depend on the processing

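With limma-voom, every count of called proteasome genes stayed within 1.5 times the reported one. Without a filter on low counts the scaling shifted, and some counts moved. For hnRNPC they were 2 higher on day 3, 5 lower on day 4 and 6 higher on day 5, and 6 larger and 6 smaller for the difference between days. For ADAR+hnRNPC they were 0 higher and 4 lower on day 3, 1 higher on day 4, 6 higher on day 5, and 4 larger between days. ADAR and GFP on day 5 had 0 higher, the interaction 12 lower, cytosolic against total RNA 35 higher and 2 lower, cytosolic against nuclear RNA 1 lower, hnRNPC in total RNA 0 higher and 1 lower, and ADAR+hnRNPC in total RNA 0 higher. That scaling moved the log2 values of the genes by 0.24 in cytosolic against nuclear RNA, by 0.15 in cytosolic against total RNA and by -0.10 for ADAR+hnRNPC in total RNA. With the replicate block ADAR+hnRNPC on day 3 had 5 higher and GFP 2 lower, and PSME2 passed for hnRNPC on day 5 (adjusted p = 0.0445), as did PSMB7 for cytosolic against total RNA (0.0345). The block moved no other count of calls by over 1.5 times, and crossing the numbers in the second study, chosen after seeing the data, moved none. Without PSMC3IP and PSME3IP1 ADAR+hnRNPC had 3 higher on day 4 and 0 higher in total RNA. With DESeq2's size factors ADAR on day 5 had 2 higher and GFP 1 higher and 2 lower, and the DESeq2 Wald test gave 2 higher and 8 lower for ADAR, 2 lower for GFP and 4 higher for hnRNPC in total RNA. Without the 3 total RNA libraries that stood apart (chosen after seeing the data) cytosolic against total RNA had 11 higher. That fit compared the CTRL, hnRNPC and ADAR groups alone. With an intron minimum of 0.5 average log2 CPM 11 introns were higher. The cause of these moves was not tested.

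Leaving out 1 library at a time gave 22 to 27 higher for IFN-α, 6 to 9 higher and 5 to 11 lower for hnRNPC on day 3, 10 to 13 and 6 to 10 on day 4, and 10 to 12 and 14 to 16 on day 5. For ADAR+hnRNPC it gave 2 to 3 higher and 3 to 7 lower on day 3, 4 to 6 and 11 to 20 on day 4, and 9 to 10 and 18 to 21 on day 5. For ADAR on day 5 it gave 0 to 3 and 2 to 5, for GFP 0 to 5 and 0 to 1, for the interaction 9 to 13 and 14 to 19, for the day differences 7 to 10 and 8 to 12 (hnRNPC) and 6 to 8 and 13 to 16 (ADAR+hnRNPC), for cytosolic against total or nuclear RNA 16 to 23 and 4, for introns 6 to 8 and 2 to 5, and in total RNA 0 to 12 and 0 to 5 (hnRNPC) and 0 to 3 and 1 to 12 (ADAR+hnRNPC). CTRL replicate 3 of day 3 decided the lowest counts of that day (5 for hnRNPC, 3 for ADAR+hnRNPC), hnRNPC replicate 2 of day 3 gave 6 lower, the lowest intron count came without CTRL replicate 1 or hnRNPC replicate 2 of day 5, and CTRL replicates 2 and 3, ADAR replicates 1 and 3 and each GFP replicate of day 5 moved the ADAR or GFP counts by over 1.5 times. In total RNA without either hnRNPC replicate no gene passed. The editing difference stayed between -3.26 and -3.00 percentage points, and was -3.47 over 56 sites with at least 20 reads and -2.52 as a mean over sites.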
